A study of Homo sapiens with 6 samples.

Results

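The genes described here are 42 components of the innate response to double-stranded RNA and of the type I interferon response. They were chosen for their known roles, with earlier results of these data known. They were followed in 293T cells, a human embryonic kidney line that carries the SV40 large T antigen and takes up nucleic acids readily. Of the 42 genes, 41 had counts in at least 1 library, out of 26613 genes with counts in the series. IKBKE was not analysed here, because its current Ensembl identifier matched no row of the count tables. The study gave 3 cultures a duplex mimic of the microRNA miR-941 at 10 nM, in complex with Lipofectamine 2000, a cationic lipid, 24 h after plating. In parallel 3 cultures were transfected with a scrambled oligonucleotide, called the mock group, for which the labels give neither dose nor carrier. RNA depleted of ribosomal RNA was sequenced over 100 bases. The question addressed is at what level these genes were present in the transfected cells, and whether the mimic duplex changed them relative to the scrambled oligonucleotide. Untransfected cells were not analysed here, so a response shared by both groups would not be seen.

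As background, double-stranded RNA in the cytoplasm is recognised by the helicases RIG-I (gene RIGI) and MDA5 (IFIH1), and in endosomes by TLR3. The cytoplasmic sensors act through the mitochondrial adaptor MAVS and the kinases TBK1 and IKKε on the transcription factors IRF3 and IRF7, which switch on interferon beta (IFNB1). Secreted interferon binds the receptor chains IFNAR1 and IFNAR2, and a complex with STAT2 and IRF9 then induces effector genes through a promoter sequence named the interferon-stimulated response element. Some effectors, such as the kinase PKR (EIF2AK2) and the OAS enzymes, are themselves activated by double-stranded RNA. Synthetic duplex RNA can trigger this pathway in some cell types, depending on its length and ends. The DNA-sensing pair cGAS and STING shares TBK1 and IRF3 with the RNA sensors.

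Total counts were 6079420 to 7651046 per library, so 3 counts correspond to 0.392 to 0.493 CPM, which is counts per 1e6 counts of the library. The CPM of genes given below are scaled by TMM factors of 0.994 to 1.01. Libraries of the same group varied by 1.27 to 2.38 times what sampling alone gives, and libraries of different groups by 3.58 to 4.8 times. Of 10 markers listed for 293T and related kidney-line cells, the 8 that matched the tables were all expressed, with VIM, KRT8 and KRT18 the highest. Their summed level was 2002 to 2081 CPM in the mimic libraries and 1864 to 1961 CPM in the mock libraries. Of 12 leukocyte, endothelial and fibroblast markers 10 matched, 7 of them below the filter on low counts, and the sum over the list was 58.9 to 65.5 CPM with the mimic and 54.5 to 60.1 CPM without it. COL1A1 and CD68 made up most of that sum. NEFM, SALL1 and KRT18 of the first list and CD68 of the second were called higher with the mimic by edgeR, and their part in the results below was not tested. PTPRC and PECAM1 matched no row and were not analysed here. The T cell gene CD3E and the phagocyte gene LYZ had 1 and 3 counts in all libraries together. In a bulk measurement, fewer cells expressing a gene and less RNA per cell cannot be told apart.

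The sequences that relate these genes to the treatment and to interferon are shown first. The mature strand of miR-941, given by RefSeq (GRCh38.p14) at 5 loci on chromosome 20, is printed with its seed, bases 2 to 8, in capitals. The seed pairs with GCCGGGT in a messenger RNA. Among the 36 genes tested below, 3 carried this 7-base site in the longest 3′ UTR annotated by GENCODE release 29 (GRCh38), or 8.33%, against 706 of 13110 tested genes, or 5.39%. A sequence match describes a transcript and does not show that the microRNA binds it, and the sites are given here as a count, not by gene.

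miR-941: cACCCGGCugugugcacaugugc

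Promoter windows from RefSeq (GRCh38.p14), 250 bases before to 50 after the annotated start, matched 30 of the 42 genes. They were searched on both strands for the core of the interferon-stimulated response element, written GAAANNGAAA, or TTTCNNTTTC on the other strand. At least 1 match was present in 17 of the 30 genes, or 56.7%, against 1195 of 27305 genes with a window, or 4.38%, and 1255 of 35116 windows, or 3.57%. Matches were found in all 3 IFIT genes with a window and in IFITM1, IFITM3, ISG15, ISG20, MX1, OAS3, BST2, EIF2AK2, IFI6, IFI27, IFI44, IFI44L, IFIH1 and TLR3. RIGI, MAVS, TBK1, TRIM25, IFNAR1, IFNB1, IRF1, IRF9, STAT2, OAS1, ADAR, ZC3HAV1 and IKBKE had none in these windows, which says only that these letters are not there. Among them, the windows of OAS1 and RIGI hold gaaacgaaa and that of TRIM25 tttcgtttc, a closer spacing that the search did not count. Stretches from 6 effector genes are shown because their transcripts are the usual readout of interferon; capitals mark bases within a match, and each reads 5′ to 3′ on the strand of the gene.

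IFIT1 (chr10:89392487-89392536, plus strand): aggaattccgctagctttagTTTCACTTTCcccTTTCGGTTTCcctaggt

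ISG15 (chr1:1013364-1013413, plus strand): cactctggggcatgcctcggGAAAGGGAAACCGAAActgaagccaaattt

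IFI6 (chr1:27672319-27672368, minus strand): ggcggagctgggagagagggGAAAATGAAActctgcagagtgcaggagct

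BST2 (chr19:17405731-17405780, minus strand): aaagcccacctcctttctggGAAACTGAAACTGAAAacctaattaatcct

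IFI44 (chr1:78649751-78649800, plus strand): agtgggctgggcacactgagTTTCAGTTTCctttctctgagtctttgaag

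OAS3 (chr12:112938311-112938360, plus strand): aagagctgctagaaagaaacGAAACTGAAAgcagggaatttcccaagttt

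In IFIT1 and ISG15 the first matches begin 116 and 113 bases before the annotated start, and 2 matches lie within the stretch shown. In BST2 a pair of overlapping matches begins 130 bases before the start. IFI6 has 3 matches in its window, of which the first is shown. Whether any of these elements is in use in 293T cells was not measured.

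The level of each gene in 293T cells was first compared per length, as the mean over 6 libraries of CPM per kilobase of merged exons. The median over 15084 tested genes with a length was 6.46 CPM per kb, and over the 36 tested members 6.17 CPM per kb. ADAR, the adenosine deaminase that edits double-stranded RNA, was the highest at 40.9 CPM per kb (39.6 to 42.1 over the libraries), above 92.8% of tested genes. IFI6, a small mitochondrial and endoplasmic reticulum protein induced by interferon, followed at 21.8 (19.1 to 26.7), and PKR (EIF2AK2) at 16.7 (14.95 to 18.1). The ranges of these 3 genes do not overlap each other.

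Next came a group of signalling and effector genes whose ranges run into each other, and those of IRF3, TRIM25 and IFNAR1 also overlap that of EIF2AK2, so the order among these is not resolved. It held IRF3 at 14.5 CPM per kb, TRIM25 at 13.5, IFNAR1 at 13.3, IFITM2 at 12.1, ISG15 at 11.7, MAVS at 11.7, ZC3HAV1 at 11.3, IFITM3 at 11.05, STAT2 at 10.6 and TBK1 at 10.1. MAVS, TBK1, IRF3, both receptor chains and STAT2 were thus above the median tested gene in these cells. RIGI lay near the median at 6.09 CPM per kb (5.45 to 6.798), and IFIH1 at 2.38 (2.02 to 2.54), below it and outside the range of RIGI. STING1, the endoplasmic reticulum adaptor of DNA sensing, was also near the median at 6.25 CPM per kb (5.55 to 6.98).

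The lower end held 3 of the 5 sensors and several strongly inducible effectors. TLR3 stood at 0.233 CPM per kb (0.145 to 0.366), DHX58, the regulatory helicase LGP2, at 0.2497 (0.205 to 0.299), and CGAS, the sensor of cytoplasmic DNA, at 0.169 (0.0336 to 0.265). These ranges overlap, so the order among them is not resolved. OASL at 0.234, IFI44L at 0.212, OAS1 at 0.412, OAS2 at 0.5097 and IFI27 at 0.578 CPM per kb lay there too. OAS3, the longest OAS enzyme, was higher, at 5.65 (4.84 to 7.07), above the ranges of both OAS1 and OAS2. IFNB1 was the lowest, with 0, 1 and 0 counts in the mimic libraries and 0, 0 and 1 in the mock libraries. All 6 libraries were therefore under the 3 counts used here as the limit of detection, and no fold change is given for it. Merged exon length includes rarely used exons, so genes with long minor isoforms are understated on this scale.

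**Figure D1:**
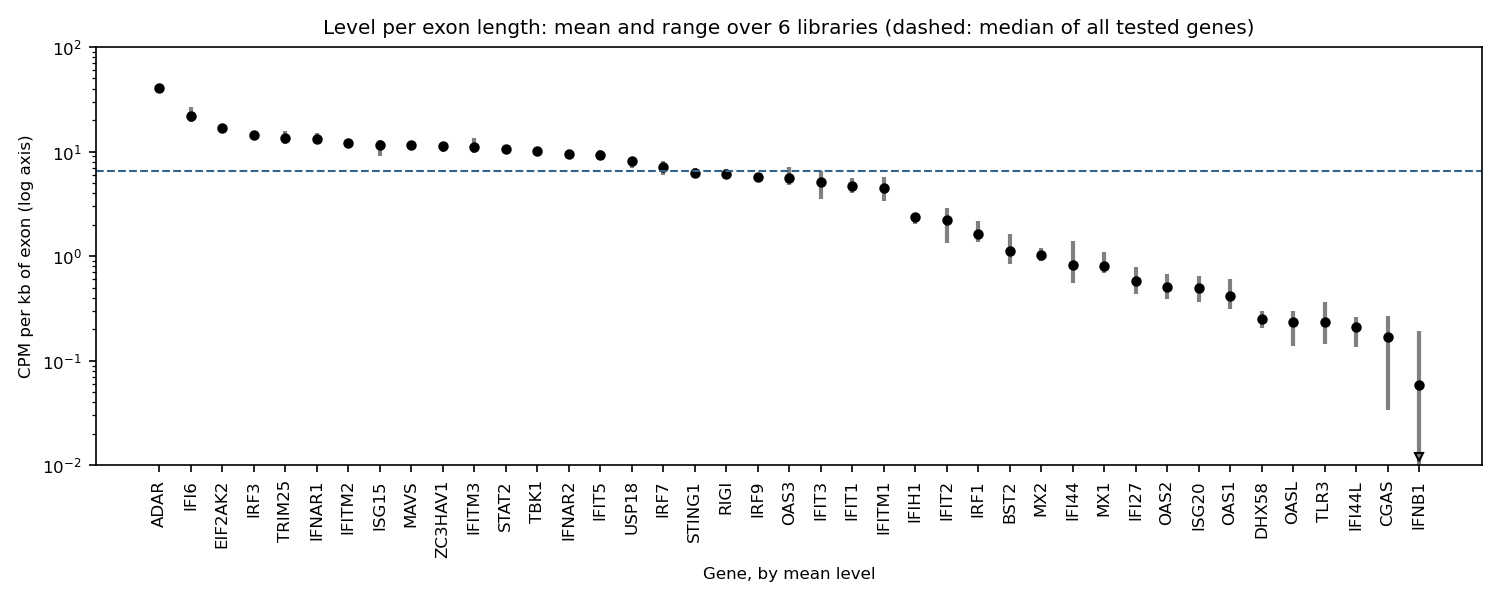
Level of 41 genes in CPM per kb of merged exons (log axis), ordered by mean; points are means over 6 libraries, grey bars the range, the dashed line the median of all tested genes at 6.46, and the open triangle a range that reaches 0. ADAR is highest at 40.9 and IFNB1 lowest, and sensors appear both near the median (RIGI, 6.09) and near the bottom (CGAS, 0.169).

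Between the mimic and the mock libraries this group of genes changed little. Of the 36 genes that passed the filter on low counts, none rose and 2 fell, TRIM25 and IFNAR1, by the quasi-likelihood test of edgeR, with p-values adjusted over 15607 genes by Benjamini-Hochberg. That is 5.56% of the tested members, against 13.0% of all tested genes called in either direction. The background share of genes called lower was 6.19%, against 5.56% here, and the share called higher 6.8%. At an unadjusted p under 0.05 there were 8 members, or 22.2% against 25.5% of all genes. Of these 8, IFI6 was higher and TRIM25, IFNAR1, MAVS, STING1, IRF1, IFIT2 and IFIT3 were lower. DESeq2's Wald test called the same 2 genes lower and none higher, and gave 9 of the 36 no adjusted p. It also called fewer genes over all, 1015 of 15607, with 499 of them lower. Without mimic replicate 2 there were 4 calls among 37 tested members, TRIM25, IFNAR1, IFIT2 and IFIT3, all lower. That fit called 1691 of 15827 genes, 813 of them lower. The low share of calls is that of the main edgeR fit, and it depends on the test and the libraries used. It is a description of these 36 genes and no test that they differ from others.

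The intervals of the fold changes limit what could have been missed. In all 36 tested genes the upper end of the 95% interval stayed below a 2-fold rise. Each interval holds for its gene alone and not for the 36 jointly. DHX58, CGAS, IFNB1, OASL and BST2 were below the filter and IKBKE was not matched, so these limits do not cover them. The highest upper end was 0.91 on the log2 scale, or 1.88-fold, in IFI44, a gene with 8 to 18 counts per library. For ISG15 the interval was −0.15 to 0.43 on the log2 scale, for IFIT1 −0.19 to 0.26, for OAS3 −0.39 to 0.13 and for RIGI −0.12 to 0.27. A 2-fold decrease lay outside the interval in 35 of the 36, TLR3 being the exception (−1.23 to 0.28). The median log2 fold change of the 36 was −0.06, with 24 negative (66.7%), against a median of 0.00 and 7740 of 15607 negative (49.6%) over all tested genes.

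**Figure D2:**
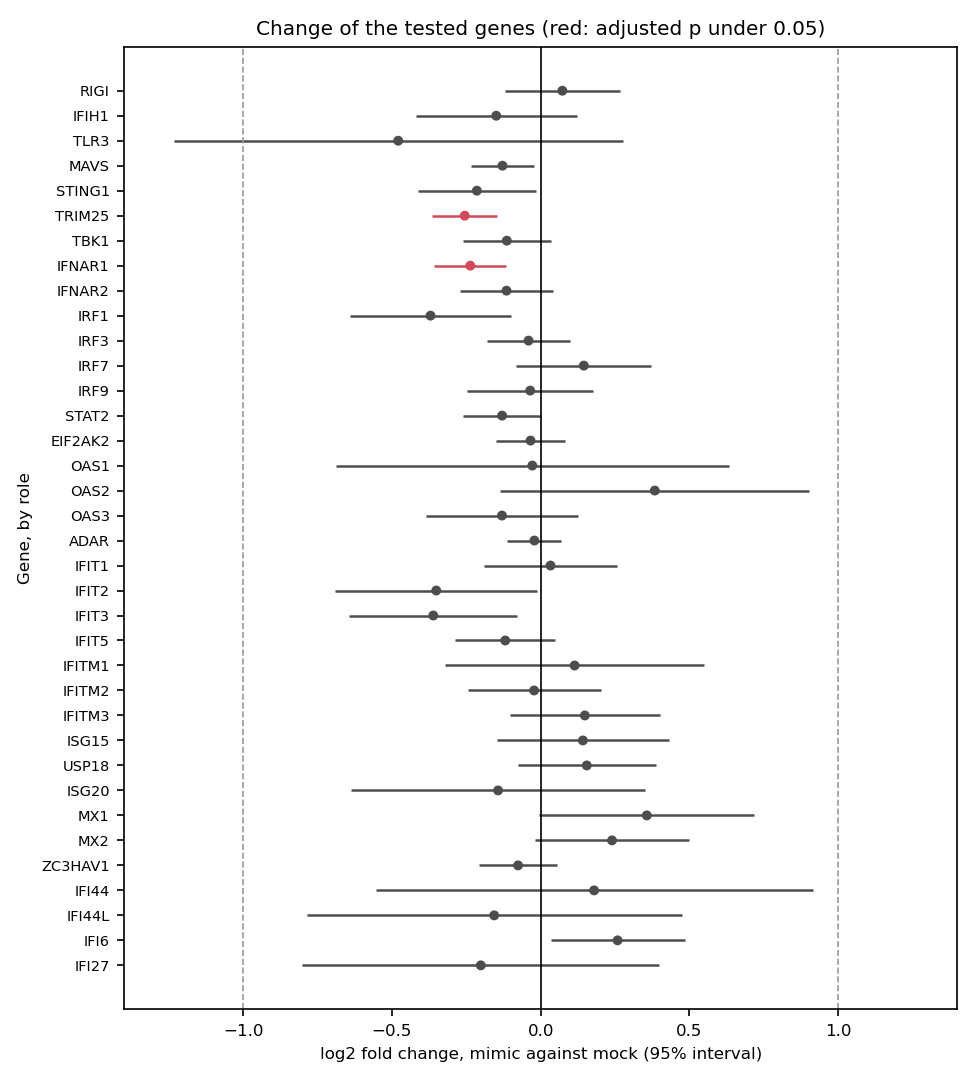
Log2 fold change of the 36 tested genes, mimic against mock, with 95% intervals from edgeR's quasi-likelihood test; genes are ordered by role, red marks an adjusted p under 0.05 and dashed lines mark a 2-fold change. TRIM25 (−0.26) and IFNAR1 (−0.24) are the red points, and no interval reaches the upper dashed line.

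In 11 of the 36 genes, or 30.6%, all libraries of one group lay on one side of the other group, against 28.3% of all tested genes. Mimic lay below mock in 7 (19.4%, against 13.9% of all genes) and above it in 4 (11.1%, against 14.4%). The 7 were MAVS, STING1, TRIM25, TBK1, IFNAR1, IRF1 and STAT2. The 4 were USP18, MX1, MX2 and IFI6. The gene lists placed the 7 among adaptors, kinases, receptors and transcription factors, and the 4 among effector and other induced genes. These roles are not exclusive, since IRF1 is itself induced by interferon and USP18 also restrains the receptor. A contrast between signalling and effector genes was not tested.

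Among the sensors, RIG-I detects short duplexes with a 5′ triphosphate, and its gene RIGI was counted at 26.9, 25.1 and 29.6 CPM in the mimic libraries and 23.7, 27.7 and 26.1 CPM in the mock libraries. The groups overlapped, with a log2 fold change of 0.07 ± 0.10 (SE, n = 3 per group, edgeR adjusted p = 0.705). MDA5, which binds long double-stranded RNA, is encoded by IFIH1, at 12.5, 10.3 and 11.6 CPM in the mimic libraries and 12.9, 12.5 and 12.95 CPM in the mock libraries. The lowest library was a mimic one and the groups overlapped, with a change of −0.15 ± 0.14. TLR3, at 1.19, 0.978 and 1.73 CPM in the mimic libraries and 1.36, 1.67 and 2.46 CPM in the mock libraries, had a log2 fold change of −0.48 ± 0.38, which did not pass. Its counts were 7 to 15 per library and the interval was wide (−1.23 to 0.28). DHX58 and CGAS were below the filter, with 5 to 8 and 1 to 7 counts per library.

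TRIM25, an E3 ubiquitin ligase that was described as an activator of RIG-I, was at 116, 112 and 121 CPM in the mimic libraries and 135, 135 and 148 CPM in the mock libraries. Every mimic library lay below every mock library. Its log2 fold change was −0.26 ± 0.05, a decrease from 139 ± 7.45 to 117 ± 4.49 CPM (SD, n = 3; edgeR adjusted p = 0.000436). TRIM25 lies at chr17:56836387-56914080 on the minus strand (GENCODE release 29, GRCh38). Exons of DGKE overlap 80 bases of it on the opposite strand, and DGKE had a log2 fold change of 0.14 ± 0.07, which did not pass.

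MAVS, the mitochondrial adaptor of both cytoplasmic RNA sensors, was at 131, 126 and 137 CPM in the mimic libraries and 143, 148 and 139 CPM in the mock libraries. The groups did not overlap, but the change of −0.13 ± 0.05 did not pass (adjusted p = 0.102, edgeR). It passed when mimic replicate 3 was left out, at −0.16 with an adjusted p of 0.0279. STING1, at 21.4, 23.1 and 22.4 CPM in the mimic libraries and 24.01, 26.7 and 26.9 CPM in the mock libraries, also had separate groups and a change of −0.21 ± 0.10 (edgeR adjusted p = 0.158). TBK1, the kinase that phosphorylates IRF3, was between 43.0 and 48.5 CPM with the mimic and between 49.0 and 51.1 CPM in the mock group, a change of −0.11 ± 0.07. All 4 tested genes of this role therefore had every mimic library below every mock library, and TRIM25 was the one that passed. That pattern was found in 19.4% of the tested members and 13.9% of all tested genes. Whether the 4 genes fell together was not tested.

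IFNAR1, a chain of the type I interferon receptor, was at 76.9, 76.7 and 77.6 CPM in the mimic libraries and 89.4, 88.4 and 94.9 CPM in the mock libraries. The mimic libraries were within 1 CPM of each other and all were below the mock libraries. Its log2 fold change was −0.24 ± 0.06, from 90.9 ± 3.504 to 77.1 ± 0.478 CPM (SD, n = 3; edgeR adjusted p = 0.0039). The gene lies at chr21:33324477-33359862 on the plus strand. IFNAR2, the high-affinity chain of the same receptor, was at 46.4, 40.2 and 40.3 CPM in the mimic libraries and 47.2, 42.8 and 48.03 CPM in the mock libraries. Here the groups overlapped, and the change of −0.11 ± 0.08 did not pass (edgeR adjusted p = 0.383). The difference between the changes of IFNAR1 and IFNAR2 was not tested. IFNAR2 shares 44.2% of its exon length with the read-through gene IFNAR2-IL10RB on the same strand, which had 59.8% of its counts and a log2 fold change of −0.22 ± 0.10, so its value is uncertain.

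IRF3, the factor that switches on IFNB1, was at 56.6, 53.8 and 51.9 CPM in the mimic libraries and 55.5, 53.7 and 58.4 CPM in the mock libraries. The groups overlapped, with a log2 fold change of −0.04 ± 0.07. Exons of BCL2L12 overlap 19.3% of its exon length on the opposite strand, and BCL2L12 fell, by 0.47 ± 0.08 on the log2 scale (edgeR adjusted p = 2.78e-06). Use of strand in the counting is not known here, so reads of the pair cannot be told apart and IRF3 is less certain. IRF7, which amplifies interferon production, had a change of 0.15 ± 0.11 and ranged from 17.7 to 21.5 CPM with the mimic and from 15.8 to 18.7 CPM in the mock group. IRF9, the DNA-binding part of the interferon-activated complex, had a change of −0.04 ± 0.11, but 48.4% of its exon length is shared with the unnamed gene ENSG00000259529, counted at 202% of its level.

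STAT2, the partner of IRF9, was at 60.4, 64.1 and 60.9 CPM in the mimic libraries and 67.4, 68.5 and 66.9 CPM in the mock libraries. The groups were separate by a small margin, and the change of −0.13 ± 0.07 did not pass (edgeR adjusted p = 0.203). IRF1, a factor that is itself induced by interferon, was at 11.9, 10.9 and 10.5 CPM in the mimic libraries and 16.8, 13.6 and 12.5 CPM in the mock libraries. Mock replicate 1 was the highest and the groups did not overlap, with a change of −0.37 ± 0.14 (edgeR adjusted p = 0.0605). Without mock replicate 3 it passed, at −0.45 with an adjusted p of 0.042. IRF1 shares 22.0% of its exon length with the antisense gene IRF1-AS1.

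Among the enzymes that double-stranded RNA activates, PKR (EIF2AK2), which halts translation by phosphorylating eIF2α, was at 177, 161 and 194 CPM in the mimic libraries and 169.8, 194 and 179 CPM in the mock libraries. The groups overlapped widely, with a log2 fold change of −0.03 ± 0.06. ADAR was at 388, 384 and 408 CPM in the mimic libraries and 404, 403 and 390.3 CPM in the mock libraries. Its change of −0.02 ± 0.05 had an interval of −0.11 to 0.07, the narrowest of the group. The OAS enzymes make the 2′-5′ oligoadenylates that activate RNase L. OAS3 was at 41.8, 39.95 and 51.6 CPM in the mimic libraries and 44.8, 43.2 and 58.4 CPM in the mock libraries, where replicate 3 was the highest library of each group. Its change was −0.13 ± 0.12, and OAS1 and OAS2, at 1.54 to 2.99 and 2.44 to 4.19 CPM over all libraries, had −0.03 ± 0.33 and 0.38 ± 0.26. The 5 tested enzymes had no call from edgeR or DESeq2, though DESeq2 gave OAS1 and OAS2 no adjusted p, and none had an unadjusted p under 0.05 by edgeR. OASL, at 3 to 8 counts per library, was below the filter on low counts.

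The IFIT proteins bind viral RNA and are among the genes most sharply induced by interferon and by IRF3 itself. IFIT1 was at 18.6, 20.7 and 25.97 CPM in the mimic libraries and 20.1, 19.7 and 23.8 CPM in the mock libraries. Its groups overlapped, with a log2 fold change of 0.03 ± 0.11, and replicate 3 was again the highest of each group. IFIT2 was at 5.54, 10.2 and 8.34 CPM in the mimic libraries and 9.63, 9.32 and 11.8 CPM in the mock libraries. Mimic replicate 1 was the lowest, and the change of −0.35 ± 0.17 did not pass (edgeR adjusted p = 0.179). IFIT3 was at 9.36, 13.7 and 12.4 CPM in the mimic libraries and 12.2, 16.3 and 17.2 CPM in the mock libraries, with mimic replicate 1 again the lowest and a change of −0.36 ± 0.14 (edgeR adjusted p = 0.0823). Both became calls when mimic replicate 2 was left out, at −0.58 (adjusted p = 0.0348) for IFIT2 and −0.49 (0.0305) for IFIT3, and IFIT3 also without mock replicate 1, at −0.51 (0.0207). IFIT5, the most abundant of the 4, had a change of −0.12 ± 0.08. Of the 4 genes 3 had a lower mean with the mimic. IFIT2 shares 65 bases of exon with LIPA on the opposite strand, which had 765% of its counts.

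The IFITM proteins block the fusion of viruses with endosomes, and BST2 (tetherin) holds budding virions at the cell surface. IFITM3 was at 15.4, 13.6 and 18.1 CPM in the mimic libraries and 13.2, 15.02 and 14.1 CPM in the mock libraries. The groups overlapped, with a change of 0.15 ± 0.13, and IFITM2 and IFITM1 had −0.02 ± 0.11 and 0.11 ± 0.22. The 3 genes are close copies. Of the 100-base stretches in IFITM1 transcripts, 25.5% also occur in IFITM2 and 4.05% in IFITM3, so reads can be assigned to either and the IFITM1 value is uncertain. BST2, with 6 to 13 counts per library, was below the filter on low counts.

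ISG15, a ubiquitin-like modifier and one of the earliest interferon-induced transcripts, was at 10.7, 12.2 and 11.96 CPM in the mimic libraries and 12.1, 10.6 and 8.52 CPM in the mock libraries. The groups overlapped and the lowest library was mock replicate 3, with a log2 fold change of 0.14 ± 0.15 (edgeR adjusted p = 0.598). USP18, the protease that removes ISG15 and restrains the receptor, was at 18.2, 18.4 and 17.6 CPM in the mimic libraries and 17.5, 14.7 and 16.6 CPM in the mock libraries. All mimic libraries were above all mock libraries by a margin of under 1 CPM, and the change of 0.15 ± 0.12 did not pass. USP18 shares 15.4% of its 100-base stretches with the near copy USP41, which had 5 counts in all libraries.

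MX1, a GTPase that traps viral nucleocapsids, was at 6.99, 6.85 and 9.44 CPM in the mimic libraries and 5.97, 6.12 and 5.902 CPM in the mock libraries. Mimic replicate 3 was the highest, the groups did not overlap, and the change of 0.36 ± 0.18 did not pass (edgeR adjusted p = 0.202). MX2, its nuclear pore relative, was at 15.7, 13.97 and 13.4 CPM in the mimic libraries and 12.2, 12.5 and 11.8 CPM in the mock libraries, also with separate groups and a change of 0.24 ± 0.13. IFI6 was at 20.04, 18.7 and 23.1 CPM in the mimic libraries and 18.2, 16.5 and 16.7 CPM in the mock libraries. It had the smallest unadjusted p of the genes that were higher with the mimic, 0.0251, with a change of 0.26 ± 0.11 (edgeR adjusted p = 0.127). ISG20, an exonuclease, had −0.14 ± 0.25, and ZC3HAV1, the antiviral protein ZAP that binds CpG-rich RNA, was at 80.9 to 102 CPM with the mimic and 89.5 to 99.8 CPM in the mock group (−0.08 ± 0.06). IFI44, IFI44L and IFI27 had 8 to 24 counts per library and changes of 0.18 ± 0.37, −0.16 ± 0.32 and −0.20 ± 0.30, none of which passed.

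**Figure D3:**
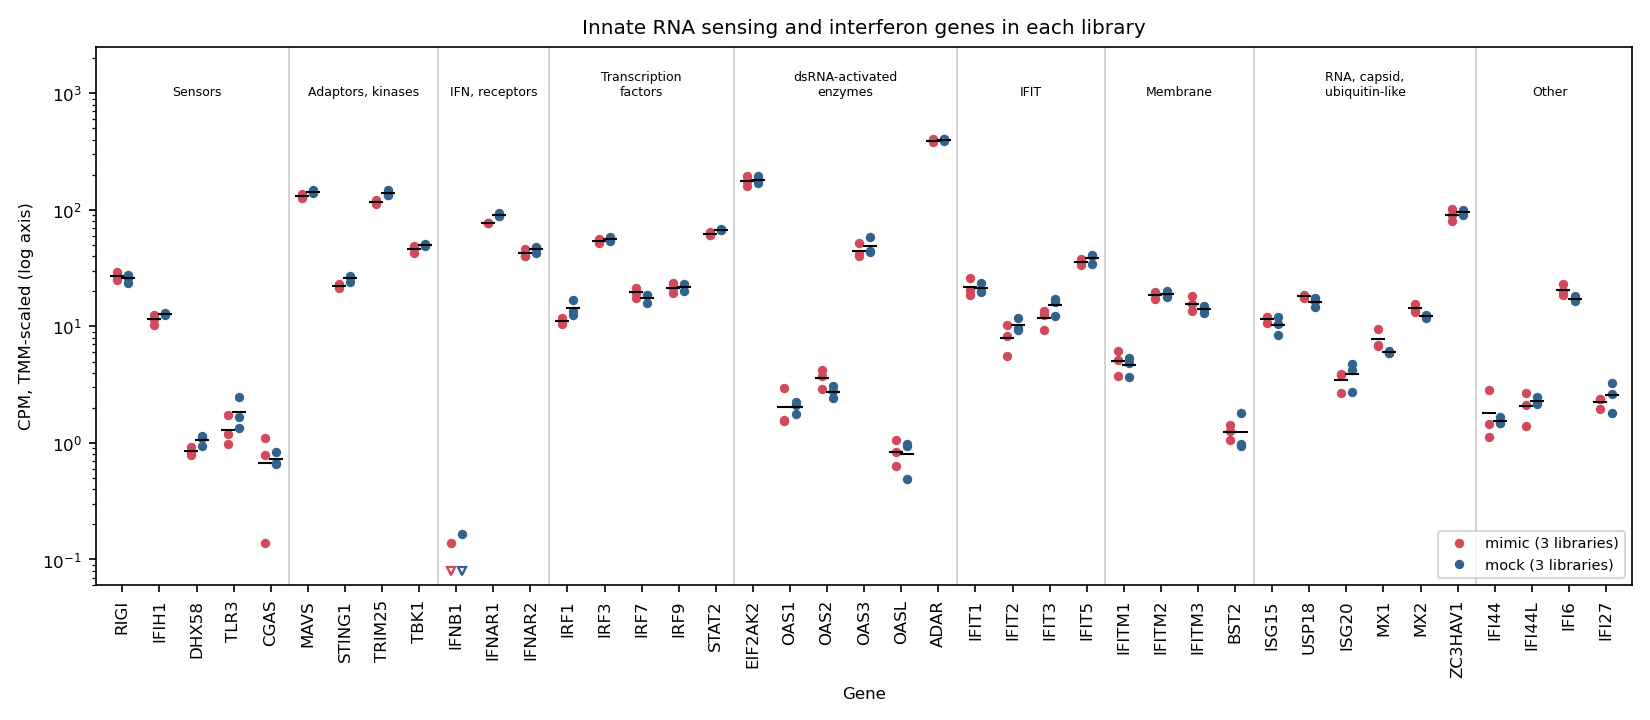
CPM of 41 genes in each of the 3 mimic (red) and 3 mock (blue) libraries on a log axis, grouped by role; black dashes are group means, and open triangles at the bottom mark libraries with 0 counts (2 per group for IFNB1). TRIM25 and IFNAR1 show mimic points below all mock points, and in most effector genes the 2 groups overlap.

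Genes with and without a match to GAAANNGAAA in their windows were set side by side. The genes without a match include OAS1, RIGI and TRIM25, which hold the cores at a closer spacing. The comparison is therefore not one of presence against absence of the element. The 16 tested genes with a match had a median log2 fold change of −0.08, from −0.48 in TLR3 to 0.36 in MX1, with 7 positive and none called by edgeR in either direction. The 11 tested genes with a window and no match had a median of −0.11, with 1 positive and 2 called lower, TRIM25 and IFNAR1. Of all 15607 tested genes 7867 were positive, 6.19% were called lower and 6.8% higher. A difference between the genes with and without a match was not tested. The genes with a match were expressed at a lower level, with a median of 4.56 against 10.6 CPM per kb. The summed level of all 41 genes was 1497 to 1633 CPM in the mimic libraries and 1621 to 1660 CPM in the mock libraries, ranges that overlap, and ADAR alone took 384 to 408 CPM of each.

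The other genes of the pathway were taken from 4 lists. Among 34 tested signalling partners of the RNA sensors, 2 rose and 2 fell by edgeR's quasi-likelihood test, or 11.8% against 13.0% of all genes, with a median log2 fold change of −0.01. ZCCHC3, a co-receptor that helps RIG-I, MDA5 and cGAS bind nucleic acid, rose from 52.95 ± 1.99 to 79.01 ± 3.03 CPM (edgeR adjusted p = 4.25e-10). TRAF3, the ubiquitin ligase that links MAVS to TBK1, rose from 38.02 ± 3.67 to 54.5 ± 3.05 CPM (edgeR adjusted p = 6.69e-07). NLRX1, a mitochondrial NLR protein described as a brake on MAVS, fell from 39.3 ± 2.28 to 27.3 ± 1.67 CPM (edgeR adjusted p = 7.11e-06). In each of these 3 genes the groups did not overlap, and the changes of 0.57 ± 0.07, 0.52 ± 0.08 and −0.52 ± 0.09 on the log2 scale lay farther from 0 than those of TRIM25 and IFNAR1. PPP1CA, a catalytic subunit of protein phosphatase 1, fell by a smaller amount (−0.15 ± 0.05), a call that ended under DESeq2 (adjusted p = 0.129) and without mimic replicate 1 or 2 or mock replicate 1 or 2 (edgeR adjusted p = 0.0564 to 0.244).

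Of 32 tested double-stranded RNA binding proteins and helicases, 1 rose and 2 fell, or 9.38% against 13.0% of all genes, with a median of −0.02. DROSHA, the nuclease that starts microRNA processing, rose from 178 ± 1.77 to 213 ± 21.9 CPM (edgeR adjusted p = 0.000345). Its mimic libraries spread more widely (200.1, 202 and 239 CPM) than its mock libraries (177, 177 and 180.3 CPM). TARBP2, a partner of Dicer and an inhibitor of PKR, and ADARB1, the second RNA editing deaminase, had −0.24 ± 0.08 and −0.22 ± 0.08. TARBP2 did not pass under DESeq2 (adjusted p = 0.17) or on leaving out any library but mimic replicate 2 (edgeR adjusted p = 0.0788 to 0.163). ADARB1 did not pass under DESeq2 (adjusted p = 0.186), without the filter on low counts (0.058) or on leaving out any library but mock replicate 3 (0.0546 to 0.177). The count of 3 became 1 without mimic replicate 1 and 5 without mimic replicate 3.

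In the list of receptor signalling and its inhibitors 3 of 23 tested genes fell and none rose by edgeR, or 13.0%. Of all tested genes 13.0% were called in either direction and 6.19% lower. The median log2 fold change of the list was −0.14. An unadjusted p under 0.05 was found in 10 of the 23, or 43.5% against 25.5% of all genes. PIAS4, a SUMO ligase that restrains STAT factors, fell from 50.2 ± 1.61 to 39.6 ± 0.329 CPM (edgeR adjusted p = 0.000685). EP300, a histone acetyltransferase, had −0.15 ± 0.05 and did not pass under DESeq2 (adjusted p = 0.148). Its call was also lost on leaving out any library but mimic replicate 3 (edgeR adjusted p = 0.0637 to 0.316) and with a minimum mean of 5 CPM (0.0515). DESeq2 called 1 gene of this list lower and none higher. Without mock replicate 1 PIAS4 was the only call of this list that was left. The interferon genes IFNL1, IFNL3, IFNE and IFNK had 1, 1, 5 and 1 counts over all libraries, and are named after these values were seen.

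Among 38 tested further interferon-induced genes, 1 rose and 5 fell, or 15.8% against 13.0% of all genes, with a median of −0.03. By direction, 13.2% were called lower against 6.19% of all genes, and 2.63% higher against 6.8%. IFI16, a nuclear DNA sensor, rose from 34.1 ± 1.23 to 44.6 ± 3.45 CPM (edgeR adjusted p = 0.000421). LY6E, a lipid-anchored surface protein that limits coronavirus entry, fell from 38.3 ± 1.86 to 29.97 ± 2.48 CPM (edgeR adjusted p = 0.00273). These 2 were the calls that DESeq2 also made. PARP12, TDRD7, SHISA5 and HERC6 had changes of −0.35 ± 0.10, −0.20 ± 0.07, −0.18 ± 0.06 and −0.33 ± 0.12, and did not pass under DESeq2 (adjusted p of 0.0945, 0.152, 0.147 and 0.195). PARP12 also lost its call without mimic replicate 2 (edgeR adjusted p = 0.205) or mock replicate 3 (0.0994). TDRD7 lost it without any library but mimic replicate 3 (0.0503 to 0.143), SHISA5 without any but mock replicate 2 (0.0549 to 0.225), and HERC6 without mimic replicate 1 or 2 or mock replicate 1 or 3 (0.0792 to 0.28). Leaving out replicate 1 of either group, or mock replicate 3, gave 3 calls in place of 6, leaving out mimic replicate 2 gave 2, and leaving out mimic replicate 3 gave 9. The chemokine genes CXCL10 and CXCL11, which interferon induces sharply, had 3 and 5 counts over all libraries, and are also named after their values were seen.

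**Figure D4:**
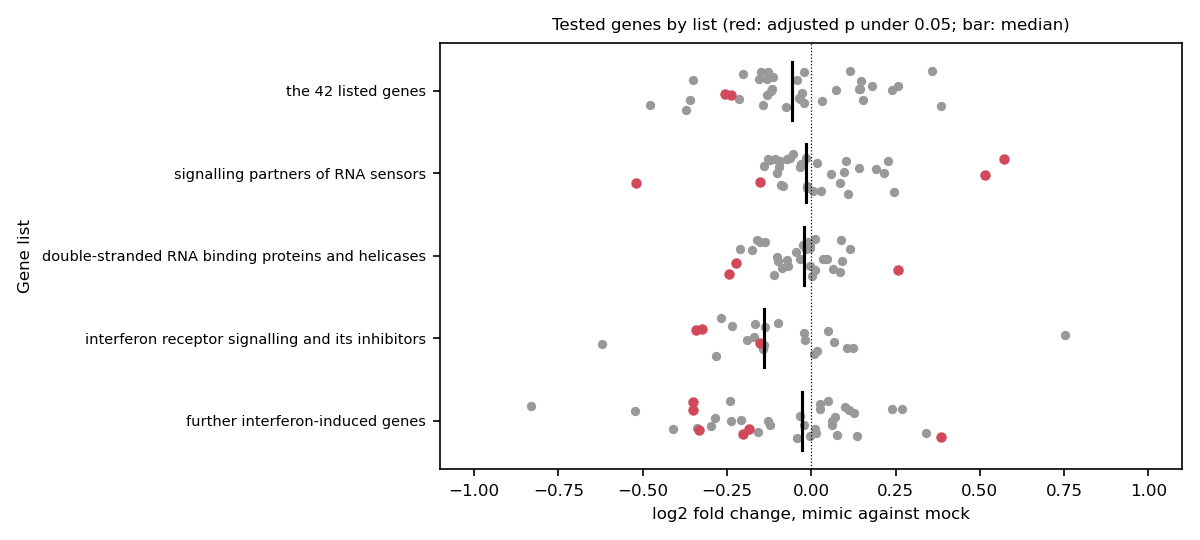
Log2 fold change, mimic against mock, of the tested genes in the group described here and in the 4 pathway lists; each point is a gene, red marks an adjusted p under 0.05 and black bars are medians. The medians lie between −0.14 and −0.01, and the red points are on both sides of 0 in 3 of the 4 pathway lists.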

How the data were processed

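The deposited values were raw read counts per gene, 1 table per library. Per the submitters' processing notes the authors used STAR, edgeR and hg19; no version is named. The counting tool, annotation and strand setting were not given in the sources used here. From the counts, differences were tested with edgeR 4.0.16 in R 4.3.3 (TMM scaling, edgeR's low-count filter by group, robust quasi-likelihood test, Benjamini-Hochberg adjustment over 15607 genes at 0.05). The fit was tested on simulated data. Alternatives were DESeq2 1.42.0, other scalings and filters, a replicate block and leaving out each library. Standard errors were derived from the fold change and its F statistic. Per the labels' protocols the transfections of this 1 line were independent replicates, and p-values measure the spread between these cultures. Tested genes held 99.7% of counts, and limits of 3 counts cover counting error only. Gene positions, exon lengths and 3′ UTRs came from GENCODE release 29 (GRCh38), promoters and the microRNA from RefSeq (GRCh38.p14), and no coordinate was taken from hg19. Identifiers were matched to symbols with these annotations. All 42 members were named. In each pathway list the 6 called genes of smallest p were named, except 1 gene that, like 1 seed site, is not reported here; seed sites are therefore given as a count. The members and lists were chosen with earlier results of these data known.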

Additional observations from a re-analysis of the deposited data

How the results depend on the processing

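TRIM25 and IFNAR1 were called lower in every setting tried, and no member was called higher in any of them. Their adjusted p ranged from 1.83e-05 to 0.0175 and from 0.00274 to 0.0444 over the 6 fits that leave out 1 library, and was 0.00487 and 0.0286 under DESeq2. The number of members called was 2 to 4 when 1 library was left out, and the median log2 fold change of the members was −0.11 to −0.02. Over all genes 1302 to 2061 were called on leaving out 1 library, and 1015 under DESeq2 (516 higher, 499 lower). In the list of double-stranded RNA binding proteins and helicases DESeq2's size factors gave 5 calls, library totals without TMM 6, DESeq2 1, and leaving out 1 library 1 to 5. Receptor signalling had 1 call under DESeq2 and 1 to 3 on leaving out 1 library, and the further interferon-induced genes 2 and 2 to 9. The cause of these shifts was not tested. Log2 fold changes that changed sign when 1 library was left out, in genes with no call, ran from −0.113 to 0.0346 in IRF9, −0.103 to 0.0287 in EIF2AK2, −0.38 to 0.13 in OAS1, −0.24 to 0.00704 in OAS3, −0.105 to 0.14 in IFIT1, −0.0404 to 0.28 in IFITM1, −0.0644 to 0.0342 in IFITM2, −0.36 to 0.0344 in ISG20, −0.26 to 0.42 in IFI44, −0.37 to 0.0563 in IFI44L and −0.41 to 0.0282 in IFI27. Same-numbered libraries of the 2 groups deviated with correlations of 0.089, −0.080 and −0.047, and differently numbered ones with −0.081 to 0.13. No pairing by number was seen in these correlations, which are small and do not settle whether a batch was shared. With the replicate block 1819 genes were called (965 higher, 854 lower) and the members' 2 calls were kept, while PPP1CA, ADARB1, TDRD7 and SHISA5 lost theirs. DESeq2 gave no adjusted p to 9 tested members, and a minimum mean of 5 CPM left out 8. Depth limits the low genes: DHX58, CGAS, IFNB1, OASL and BST2 failed the filter on low counts, so the main fit did not test them. The limit of 3 counts, or 0.392 to 0.493 CPM, is separate from that filter. Without the filter on low counts all 41 members were tested, and TRIM25 and IFNAR1 remained the only calls.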
